A study of Mus musculus with 8 samples.

Results

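LRH-1 (NR5A2) is a nuclear receptor that granulosa cells, the somatic cells around the oocyte, need for ovulation and for the steroid output of the corpus luteum. It binds DNA as a monomer, and its sites are mapped by chromatin immunoprecipitation (ChIP) with an antibody to it. FAIRE (formaldehyde-assisted isolation of regulatory elements) recovers DNA that is poor in nucleosomes and so marks open regulatory regions. The luteinising hormone surge, replaced here by human chorionic gonadotropin (hCG), turns a granulosa cell of a growing follicle towards a luteal cell. The regions described here are those where both readouts appeared within 4 h of that signal: LRH-1 peaks gained after hCG that lie in chromatin opened after hCG.

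There were 1266 such regions among 9413 LRH-1 peaks after hCG (13.4%). The LRH-1 list before hCG was shorter (5886 peaks), and with the list after hCG reduced to the same length by −log10 q the number was 751; with only the FAIRE peaks after hCG above their median score it was 764. They were selected on 4 deposited peak lists: a peak had to be in the LRH-1 list after hCG, share no base with the LRH-1 list before hCG, share at least 1 bp with the FAIRE list after hCG and share none with the FAIRE list before hCG. These presences and absences are therefore how the regions were defined and not a finding. For the same reason the shares of the whole lists are given only as background: 58.1% of LRH-1 peaks after hCG were gained, 16.9% lay at a FAIRE peak after hCG with none before, and 49.4% of FAIRE peaks after hCG overlapped none before. The 1266 regions were 23.1% of the 5473 gained peaks. The other gained peaks lay outside FAIRE peaks of either list (2844), at FAIRE peaks of both times (948, called constantly open below) or at a FAIRE peak before hCG only (415). Persistent LRH-1 peaks are those after hCG that overlap one before hCG.

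All samples of these lists were C57BL/6 mice with intact LRH-1 (LRH-1 +/+), aged 22 to 25 days, given 5 IU of equine chorionic gonadotropin and, 44 h later, 5 IU of hCG. Material was taken 4 h after hCG or at 0 h, before hCG, with FAIRE on granulosa cells from punctured ovaries. The labels call the LRH-1 ChIP samples granulosa cells too, but their protocol starts from ovarian tissue (n = 5 per condition), so LRH-1 sites of other ovarian cells cannot be told apart from those of granulosa cells. The labels state 2 replicates per condition and each condition has 1 list, so no value below has a replicate error, and every test compares peaks within these lists, not animals. Intervals cover counting error only. Positions are in mouse build mm9; no annotation of that build was used, so regions carry no gene names, the cell type could not be checked against its marker genes, and no sequence is shown.

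As LRH-1 peaks, the regions spanned 233 to 703 bp (median 312 bp). Their fold enrichment, the authors' ratio at each peak, ran from 3.3 to 11.9 with a median of 5.22 and quartiles of 4.59 and 5.92. Their −log10 q-values ran from 2.7 to 48.5 (median 7.95). The FAIRE peaks they lay in scored from 40.1 to 467 (median 84.4), on the authors' scale that starts at 40 in both lists, and were 416 to 2520 bp wide (median 946 bp). The median fold was thus slightly below that of all LRH-1 peaks after hCG (5.31). Their median FAIRE score was above that of all FAIRE peaks after hCG (71.4). The weakest regions were close to the list limits: 207 (16.4%) had a FAIRE score under 50 and 154 (12.2%) a −log10 q under 5.

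The 1266 regions used 1250 FAIRE peaks, of which 1234 held 1 region and 16 held 2. None of the regions touched more than 1 FAIRE peak, and 1143 (90.3%) lay wholly inside theirs. Of the 1250 FAIRE peaks, 30 did overlap a FAIRE peak before hCG outside the LRH-1 peak, so part of each was listed as open before hCG. The nearest FAIRE peak before hCG was a median of 20712 bp away and the nearest LRH-1 peak before hCG a median of 71832 bp away. A FAIRE peak before hCG lay within 500 bp of 39 regions and an LRH-1 peak before hCG within 500 bp of 11. Nearly all of the regions were therefore more than 500 bp from any listed peak before hCG, but other gained peaks were similar. Of all 5473 gained peaks, 5385 had no LRH-1 peak before hCG within 500 bp. FAIRE peaks before hCG covered 1.15% of positions 500 bp from the summit at these regions. At gained peaks with no FAIRE peak they covered 1.3%.

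**Figure D1:**
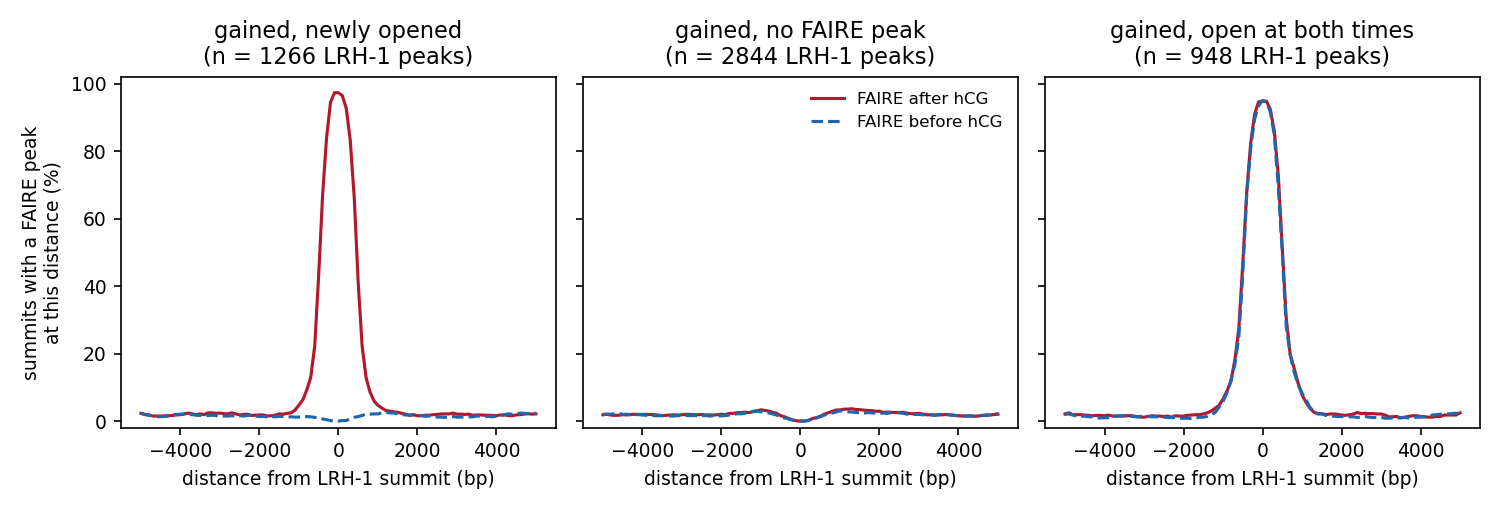
Share of LRH-1 summits (vertical axis, %) that have a FAIRE peak at each distance from the summit (horizontal axis, bp), after hCG (solid line) and before hCG (dashed line), for 3 classes of gained LRH-1 peak. At newly opened sites FAIRE peaks after hCG covered 97.3% of summits and 4.7% of positions 1000 bp away; both the covered centre after hCG and the empty centre before hCG are set by how the sites were chosen.

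The FAIRE cover around the summits is given as a description, since the selection requires a FAIRE peak after hCG there and none before. FAIRE peaks after hCG covered 97.3% of the summits, 83.6% of positions 300 bp from them, 42.2% at 500 bp and 4.7% at 1000 bp. Around constantly open gained peaks, also defined by a FAIRE peak, the same values were 94.8%, 84%, 48.9% and 7.17%. Between 2000 and 5000 bp from the summit the average coverage was 1.93% after hCG and 1.63% before hCG. Over the same distances, gained peaks with no FAIRE peak had 1.95% after hCG and 1.83% before hCG, and constantly open gained peaks 1.65% after hCG and 1.34% before hCG. These flanking values are a description of the lists and were not tested.

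The strongest regions on the LRH-1 side were named by their −log10 q. The first, at chr15:52759823-52760361, was 11.3-fold enriched with a −log10 q of 48.5 and was the best-scoring of all gained peaks, at place 54 of the whole list. Its FAIRE peak, at chr15:52759385-52760732, scored 257, and the LRH-1 summit was 24 bp from the FAIRE midpoint. The nearest FAIRE peak before hCG was 170582 bp away.

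The next was at chr17:35913891-35914304, with 10.1-fold enrichment and a FAIRE score of 300. The region at chr13:35451385-35451778 had the highest fold enrichment of all the regions, 11.9, in a FAIRE peak that scored only 87. The region at chr16:93220588-93221222 (9.29-fold) lay 448 bp from the midpoint of a FAIRE peak of 1897 bp with a score of 355. Strong LRH-1 peaks were thus found in FAIRE peaks of very different scores.

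The region at chr17:81290912-81291345 (9.58-fold, FAIRE score 116) counted as gained although an LRH-1 peak before hCG lay 9 bp away. The one at chr7:133242770-133243319 had 9.95-fold enrichment and a FAIRE score of 161. Of a pair on chromosome 11, the region at chr11:88708581-88709007 (10-fold, FAIRE score 72.4) had a persistent LRH-1 peak within 10 kb and that at chr11:109567449-109567847 (9.44-fold, FAIRE score 54.9) had none.

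The last 2 of these 10 were chr16:89695960-89696410 (10.3-fold, FAIRE score 91.7) and chr5:66514366-66514935 (8.13-fold, FAIRE score 87.8). The region on chromosome 5 was 1339 bp from a FAIRE peak before hCG, the shortest such distance among the 10. In 9 of the 10 the summit was within 164 bp of the FAIRE midpoint, the exception being the FAIRE peak of 1897 bp.

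The regions with the highest FAIRE scores were others. The best-scoring of all newly opened FAIRE peaks, at chr3:101171060-101172027 with a score of 467, held the region at chr3:101171292-101171700, which was 6.49-fold enriched and at place 294 among gained peaks. The region at chr2:132006695-132007134 was 7-fold enriched in a FAIRE peak with a score of 429. The FAIRE peak at chr17:88594365-88595253, with a score of 427, held 2 regions, at chr17:88594381-88594816 (4.92-fold) and at chr17:88594944-88595207 (5.59-fold). The widest of all the regions, 703 bp at chr2:163771778-163772480, was 5.13-fold enriched in a FAIRE peak that scored 394, and a FAIRE peak before hCG lay 874 bp away.

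Across the 1266 regions the 2 readouts were only loosely ordered together: Spearman's rho between LRH-1 fold and FAIRE score was 0.0906, against 0.0571 for the 948 constantly open gained peaks. Both are descriptions over peaks of shared libraries.

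LRH-1 enrichment was compared within gained peaks, where overlap with FAIRE peaks sets the classes. Of the newly opened sites, 714 of 1266 (56.4%, exact 95% interval 53.6 to 59.2) were above 5.03-fold, the median of all gained peaks. The share was 47.5% (45.7 to 49.4) where no FAIRE peak was present, a difference of 8.89 percentage points (odds ratio 1.43, Fisher's exact test, two-sided, adjusted p = 1.27e-06 over 16 tests). It was 44.6% at gained peaks with FAIRE before hCG only (odds ratio 1.61, Fisher's exact adjusted p = 0.00018). Against constantly open gained peaks, at 51.3%, the difference was 5.13 points (odds ratio 1.23, Fisher's exact adjusted p = 0.0473), which passed the threshold narrowly and did not pass it under 3 of 7 alternative settings. With LRH-1 lists of equal length none of the 3 differences passed: they were 5.67 points against peaks with no FAIRE, 4.51 points against those with FAIRE before hCG only and 3.4 points against constantly open ones (Fisher's exact adjusted p = 0.0515, 0.382 and 0.382). The newly opened sites had the higher share in 17, 14 and 15 of 20 chromosomes for these 3 comparisons in the order given.

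In medians the differences were small, at 5.22-fold in newly opened sites, 5.08 in constantly open ones and 4.97 in each of the other gained classes. All LRH-1 peaks after hCG together had a higher median, 5.31. Medians of persistent LRH-1 peaks were higher still, at 6.27 in newly opened and 6.28 in constantly open chromatin. They were 5.7 with FAIRE before hCG only and 5.68 with no FAIRE peak. Newly opened sites were also wider as LRH-1 peaks than gained peaks with no FAIRE, with medians of 312 and 279 bp. Constantly open gained peaks had a similar median of 305 bp. Persistent peaks had wider ones, 406 bp in newly opened and 400 bp in constantly open chromatin. In 4 equal groups by LRH-1 width, added once the results were known, the share above the median fold was 69.7% in newly opened sites and 60.4% in peaks with no FAIRE in the widest group (Fisher's exact p = 0.00253, adjusted p = 0.0101 over 4 tests). In the narrowest group it was 31.6% and 30.2% (Fisher's exact adjusted p = 0.686), and in the group next to it 46.4% and 48.4% (Fisher's exact adjusted p = 0.686). In the remaining group it was 64.5% and 57.8% (Fisher's exact adjusted p = 0.0801). Only the widest group passed the threshold, and whether the groups differ from each other was not tested. Newly opened sites made up 16.3% of gained peaks in the narrowest group and 31.9% in the widest.

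**Figure D2:**
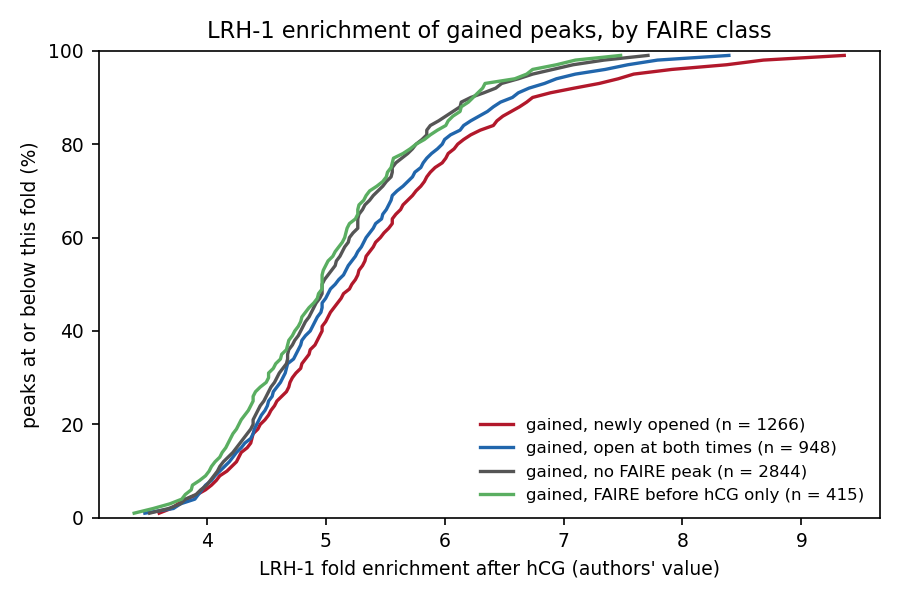
Cumulative share of gained LRH-1 peaks (vertical axis, %) at or below each LRH-1 fold enrichment after hCG (horizontal axis, authors' value), by FAIRE class; the curves join percentiles 1 to 99. At the median, newly opened sites (5.22) lie to the right of constantly open sites (5.08) and of peaks without FAIRE (4.97), and most clearly so in the upper part. Near the lower end these curves cross.

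The share of newly opened sites was highest at the top of the list. In 10 equal groups of gained peaks by fold, newly opened sites made up 18.5% to 26.3% of the 9 lower groups and 34.7% (95% interval 30.7 to 38.9) of the highest. Peaks with no FAIRE made up 54.4% of the lowest group and 40.2% of the highest, and constantly open ones 16.8% and 19.9%. Of the 100 gained peaks with the best −log10 q, 53 were newly opened, 25 had no FAIRE peak, 20 were constantly open and 2 had FAIRE before hCG only. Among the best 500, 189 were newly opened (37.8%). The share of newly opened sites among all gained peaks was 23.1%.

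Seen from open chromatin, 1220 of the 11256 newly opened FAIRE peaks (10.8%) held such a region and 9731 held no LRH-1 peak after hCG. FAIRE scores were higher where such a region lay than where there was no LRH-1 peak after hCG. Of the 1220, 861 (70.6%, 95% interval 67.9 to 73.1) scored above 61.2, the median of all newly opened FAIRE peaks, against 4571 of the 9731 (47%, 46 to 48). The odds ratio was 2.71 (95% interval 2.38 to 3.09, Fisher's exact adjusted p = 1.50e-54), and the direction was the same in 19 of 20 chromosomes. The median scores were 83.3 and 59.3. Counted per LRH-1 peak, the median FAIRE score was 84.4 at these regions and 103 at gained peaks in constantly open chromatin.

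The FAIRE peaks with a gained LRH-1 site were also wider, with a median of 942 bp against 866 bp, and a wider peak is more easily overlapped. Within 4 equal groups by FAIRE width, also added later, the difference in the share above the median score was 14.4, 18.6, 15.4 and 11.8 points from the narrowest to the widest group, with Fisher's exact adjusted p-values of 0.000173 at most. Width still varied within a group, from 979 to 4796 bp in the widest, and its part in the score difference was not tested. The share of newly opened FAIRE peaks that held a gained LRH-1 site was 5.54% in the narrowest group and 17.4% in the widest.

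By FAIRE score, this share was 4.97% (95% interval 3.78 to 6.41) in the lowest of 10 equal groups and 24.7% (22.2 to 27.3) in the highest. It stayed between 6.22% and 7.1% in the next 4 groups and was higher in each later group. Newly opened FAIRE peaks in which LRH-1 had already been present before hCG were compared too, again after the results were known. Of 305 such peaks 194 (63.6%) were above the median score, which with the 70.6% above gave an odds ratio of 1.37 (95% interval 1.04 to 1.8) that did not pass the threshold (Fisher's exact p = 0.022, adjusted p = 0.121 over 11 tests).

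**Figure D3:**
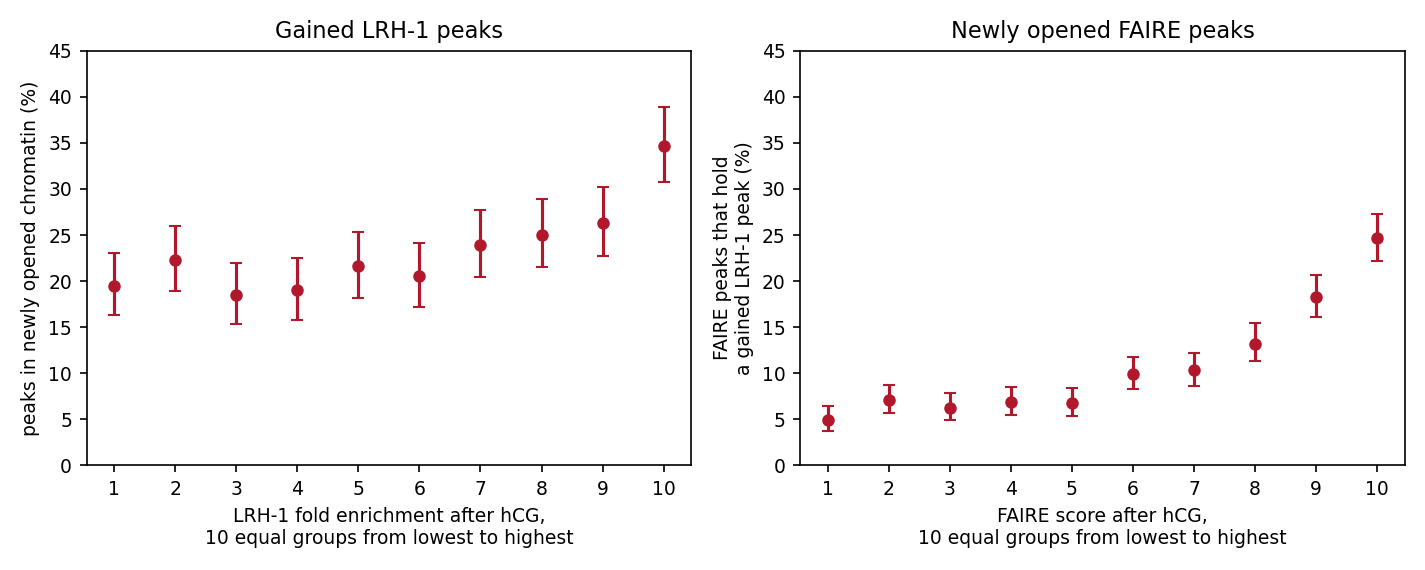
Left, share of gained LRH-1 peaks that lie in newly opened chromatin (%), in 10 equal groups by LRH-1 fold; right, share of newly opened FAIRE peaks that hold a gained LRH-1 peak (%), in 10 equal groups by FAIRE score. Points are shares with exact 95% intervals; the lowest groups stand at 19.5% (left) and 4.97% (right) and the highest at 34.7% and 24.7%.

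The LRH-1 summit usually lay near the centre of the opened region. The median distance from the summit to the FAIRE midpoint was 97.8 bp (quartiles 45.5 and 179 bp), in FAIRE peaks of a median of 946 bp. The summit was inside the FAIRE peak in 1232 of 1266 sites (97.3%, 95% interval 96.3 to 98.1) and in its central 50% in 1068 (84.4%, 82.2 to 86.3). The same measures were taken at other LRH-1 peaks with a FAIRE peak after hCG.

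Persistent LRH-1 peaks in constantly open chromatin had 84.3% of summits in the central 50% (odds ratio 1, 95% interval 0.808 to 1.24). Persistent LRH-1 peaks in newly opened chromatin had 80.7%, a difference of 3.63 points that did not pass the threshold (odds ratio 1.29, 95% interval 0.924 to 1.78, Fisher's exact adjusted p = 0.233). Gained peaks in constantly open chromatin had 78%, 6.41 points below the newly opened sites (odds ratio 1.53, 95% interval 1.22 to 1.9, Fisher's exact adjusted p = 0.000516). When FAIRE classes were instead set by the summit, that difference was 2.1 points and no longer passed (Fisher's exact adjusted p = 0.396).

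**Figure D4:**
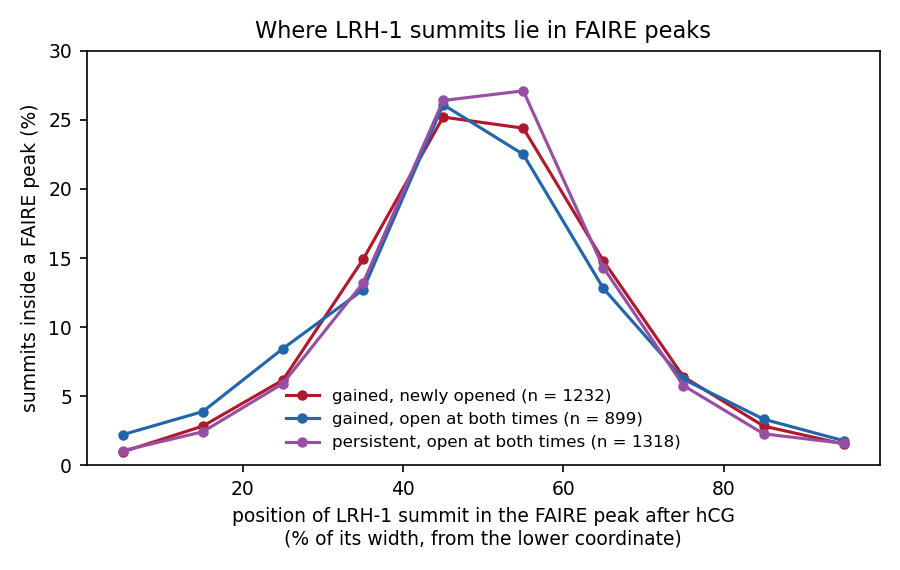
Position of the LRH-1 summit within the FAIRE peak after hCG (horizontal axis, % of its width) for summits inside one, as a share of the summits of each class (vertical axis, %). Newly opened sites peak in the middle, with 25.2% and 24.4% of summits in the central 2 of 10 bins, as do both constantly open classes.

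The surroundings of the sites were then compared within 10 kb of the summit. Another newly opened FAIRE peak lay there for 275 sites (21.7%, 95% interval 19.5 to 24.1), against 19.4% of gained peaks with no FAIRE (odds ratio 1.15, 95% interval 0.975 to 1.36), 20.9% of constantly open ones (odds ratio 1.05, 0.851 to 1.3) and 19.3% of those with FAIRE before hCG only (odds ratio 1.16, 0.874 to 1.56). None of these differences passed (Fisher's exact adjusted p = 0.184, 0.774 and 0.436). Within 50 kb the difference from peaks with no FAIRE was 4.15 points and did pass (Fisher's exact adjusted p = 0.0341).

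A persistent LRH-1 peak lay within 10 kb of 108 sites (8.53%, 95% interval 7.05 to 10.2), against 8.97%, 8.12% and 9.4% in the same 3 classes. The odds ratios were 0.947 (0.741 to 1.2), 1.05 (0.769 to 1.45) and 0.899 (0.606 to 1.36), and none passed (Fisher's exact adjusted p = 0.774, 0.807 and 0.774).

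Neighbours of other kinds were counted after the data were seen. A lost LRH-1 peak, listed only before hCG, lay within 10 kb of 51 sites (4.03%), against 4.54% of gained peaks with no FAIRE (odds ratio 0.883, 95% interval 0.621 to 1.24) and 5.06% of constantly open ones. A FAIRE peak seen only before hCG lay within 10 kb of 184 (14.5%), against 15.8% (odds ratio 0.909, 0.751 to 1.1) and 14.7%. Another gained LRH-1 peak lay within 10 kb of 171 (13.5%), against 11.4% and 11.2%. None of these 6 differences passed the threshold (Fisher's exact adjusted p of 0.2 or more). A FAIRE peak of both times was near 204 sites (16.1%) and near 21.2% of gained peaks with no FAIRE (odds ratio 0.712, Fisher's exact adjusted p = 0.00141), but near 16.4% of constantly open gained peaks (odds ratio 0.983, 95% interval 0.778 to 1.24, Fisher's exact adjusted p = 0.952). Without FAIRE peaks in the first 2000 bp, which the FAIRE conditions of the classes themselves limit, the shares were 13.8% at these sites and 16% at gained peaks with no FAIRE, which did not pass (Fisher's exact adjusted p = 0.206).

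The nearest other site was a median of 329955 bp away. Another site lay within 10 kb of 68 sites (5.37%) and within 100 kb of 339 (26.8%). Whether the sites lie closer together or further apart than other peaks was not tested. The highest number in any 100 kb was 4, reached in 4 places. The summits of 4 sites lay in chr15:83240811-83284917, in 3 FAIRE peaks with scores of 69.3 to 130 and LRH-1 enrichments of 4.17 to 5.85-fold. The span chr17:44855833-44949173 held 4 sites in 4 FAIRE peaks, with scores of 62 to 300, 1 lost LRH-1 peak and no persistent one. Another 4 sites lay in chr3:27588160-27659334, in 3 FAIRE peaks, with enrichments of 3.8 to 5.47-fold. The remaining 4 lay in chr4:57752060-57812138, in 3 FAIRE peaks, with enrichments of 3.92 to 5.47-fold. LRH-1 enrichment in these 4 groups was at most 6.25-fold, well below that of the strongest sites.

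By chromosome, the sites made up from 9.09% of gained LRH-1 peaks on chromosome X (5 of 55, 95% interval 3.02 to 20) to 29.4% on chromosome 16 (60 of 204, 23.3 to 36.2). Chromosome 9 had 17.1% (54 of 315) and chromosome 11 had 18.6% (80 of 431). Set against all other chromosomes, 0 of 20 passed the threshold with Fisher's exact test after adjustment, the lowest adjusted p being 0.0988, for chromosomes 9 and X. At an unadjusted p below the threshold there were 4: chromosomes 9, 11, 16 and X.

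**Figure D5:**
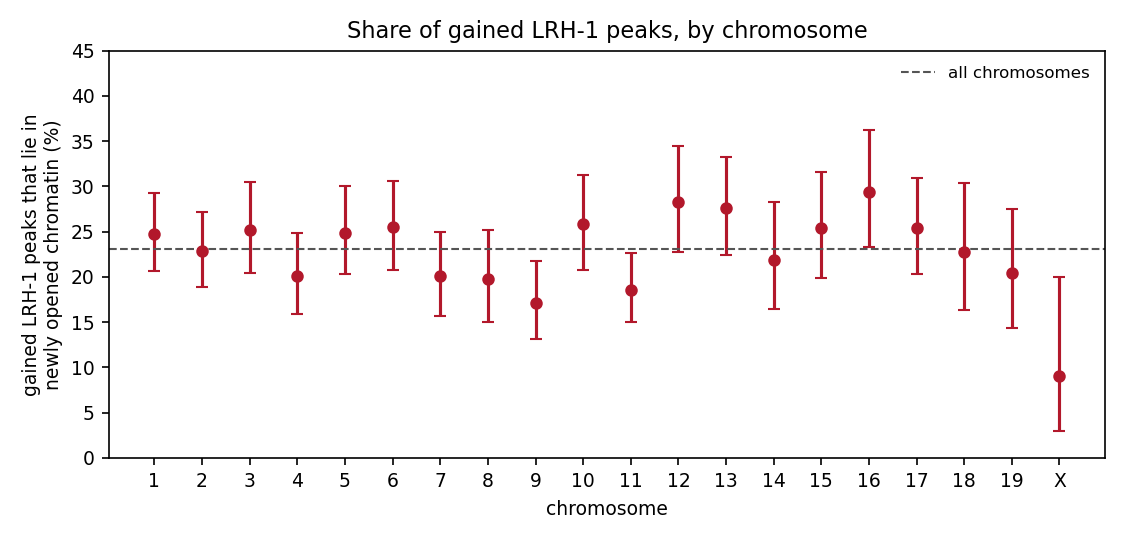
Share of gained LRH-1 peaks that lie in newly opened chromatin (vertical axis, %) on each chromosome (horizontal axis), with exact 95% intervals; the dashed line is the share over all chromosomes, 23.1%. The intervals of most chromosomes include the line, and the lowest point is chromosome X at 9.09%.

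The limits of the selection were near for a few peaks. Just inside, the site at chr9:42808856-42809246 (4.29-fold) was 8 bp from a FAIRE peak before hCG, and that at chr15:82986750-82986983 (4.7-fold) shared 2 bp with its FAIRE peak after hCG. Just outside, the peak at chr8:60220448-60220731 (4.74-fold) shared 6 bp with a FAIRE peak before hCG. Another, at chr8:48068164-48068702 (6.02-fold), shared 9 bp with an LRH-1 peak before hCG. The peaks at chr8:113558193-113558441 and chr9:77561222-77561473 missed a FAIRE peak after hCG by 1 bp.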

How the data were processed

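Reads were aligned with BWA to mm9 and LRH-1 peaks were called with MACS2 2.1.0, per the submitters' processing notes. The version of the FAIRE caller (peak names begin with MACS), and any pooling of replicates, are not given in the sources used here. Deposited lists for FAIRE (22791 peaks after and 21431 before hCG) give a score per peak. The deposited LRH-1 lists (9413 and 5886) give a score, a fold ratio, the −log10 of p and q and a summit. Read depths are unknown. Values were used to rank peaks, to compare classes of peaks and to set limits, each within a list. RNA tables were not used here, because peaks could not be joined to genes: the gene positions at hand are of GRCm38, and 10 of 20 chromosomes have a peak past their last gene there. Motif, transcript start and RNA steps of the plan were therefore not run.

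Overlaps (at least 1 bp) and shares were computed in Python 3.11.15 (numpy 2.4.6, pandas 2.3.3, scipy 1.17.1) and tested on simulated lists. An LRH-1 peak's FAIRE peak is the one it overlaps most. Shares have exact Clopper-Pearson intervals, odds ratios conditional exact ones, and Fisher's exact p-values are Benjamini-Hochberg adjusted within a family at a threshold of 0.05. Peaks are treated as independent. Named regions are the 10 best by −log10 q, the 5 best by FAIRE score, the closest groups in 100 kb and those nearest the limits of the rule; only some of the last are printed. Regions and comparisons were chosen with earlier results of these data known. Printed starts count from 1.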

Additional observations from a re-analysis of the deposited data

How the results depend on the processing

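Alternatives changed 1 choice at a time. The number of regions was 1112 to 1257 under 5 of 7 alternatives, and 751 with LRH-1 lists of equal length and 764 with the FAIRE peaks after hCG above their median score. Of the 15 regions named by score, 14 or 15 were kept under each of the 7. Some alternatives filter on the values that these 15 were named for, so that was largely set in advance. Of all regions, 59.3% were kept with LRH-1 lists of equal length and 60.3% with the better-scoring FAIRE peaks. The 6 comparisons past the threshold kept their direction in all 41 recomputations and passed in 34, and that of FAIRE scores passed in all of its own. With equal LRH-1 lists (fewer peaks), the fold differences were 5.67, 3.4 and 4.51 points against peaks with no FAIRE, constantly open ones and those with FAIRE before hCG only (Fisher's exact adjusted p = 0.0515, 0.382 and 0.382). The difference in fold from constantly open peaks also failed with summits inside FAIRE (5.02 points) and with the better-scoring FAIRE peaks (4.64 points). The share of summits inside FAIRE, 2.48 points above constantly open gained peaks (Fisher's exact adjusted p = 0.00986; with FAIRE classes set by summits it has no value), was 0.847 points with 50% overlap; that in the central 50% was 2.1 points with FAIRE set by summits. With no peak before hCG within 500 bp, summits were inside FAIRE 2.44 points more often than in persistent constantly open peaks and passed (main difference 1.25 points). At 50 kb other newly opened FAIRE peaks were 4.15 points more frequent than near peaks with no FAIRE. Signs turned in 8 recomputations of differences that had not passed: -0.164 for summits inside FAIRE (persistent, newly opened) and -2.6 (50% overlap) and -2.63 (summits) for the central 50% (persistent, constantly open); for persistent LRH-1 neighbours -0.305 (50% overlap) and -0.532 (5 kb) against constantly open gained peaks and 1.56 (equal LRH-1 lists) against no FAIRE; and for newly opened FAIRE neighbours at 5 kb -0.0435 (no FAIRE) and -0.745 (FAIRE before hCG only). The cause was not tested. No chromosome passed under any alternative. Leaving out replicates was not possible with 1 list per condition.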

Other observations

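The mirror image of these sites, 633 LRH-1 peaks lost after hCG at FAIRE peaks seen only before hCG, was measured with the same steps on the lists before hCG, after the data were seen. Among lost peaks, 56.2% of these 633 (95% interval 52.3 to 60.1) were above the median fold of lost peaks, against 46% of the lost peaks with no FAIRE peak (odds ratio 1.51, 1.23 to 1.85, Fisher's exact p = 6.75e-05, adjusted p = 0.000236 over 7 tests). The other 2 fold comparisons did not pass, against 49.6% of lost peaks in constantly open chromatin (odds ratio 1.3, 0.975 to 1.74, Fisher's exact adjusted p = 0.128) and 50% of those with FAIRE after hCG only (odds ratio 1.29, 0.729 to 2.26, Fisher's exact adjusted p = 0.484). Among FAIRE peaks seen only before hCG, 69% of the 616 that held such a site scored above the median. The share was 46.5% of the 8458 with no LRH-1 peak before hCG (odds ratio 2.56, 2.14 to 3.07, Fisher's exact adjusted p = 1.49e-26). The gained sites in newly opened chromatin had 56.4% against 47.5% and 70.6% against 47% in the same measures. Whether the gained and lost differences are unequal was not tested.

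LRH-1 summits lay in the central 50% of the FAIRE peak in 89.3% of the lost sites, against 82.7% of lost peaks in constantly open chromatin (odds ratio 1.73, 1.14 to 2.62, Fisher's exact adjusted p = 0.0174). Against persistent LRH-1 peaks the differences did not pass: the share was 89.3% at those with FAIRE before hCG only (odds ratio 0.991, 0.703 to 1.4, Fisher's exact adjusted p = 1) and 87.8% at those in constantly open chromatin (odds ratio 1.15, 0.85 to 1.58, Fisher's exact adjusted p = 0.484).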
